A study of Drosophila melanogaster with 34 samples.

Results

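The trunk gap genes of Drosophila are hb, Kr, kni, its relative knrl, and gt. They were taken from the gene count table by their FlyBase identifiers, which gave 5 of the 17491 genes listed, and all 5 had enough counts to be tested. The comparison was made in single embryos, collected 30 minutes into nuclear cycle 14 (NC14), the cycle in which the syncytial embryo becomes cellular. Poly(A) RNA of 34 such embryos was sequenced, 1 embryo per library.

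Gap genes are the first zygotic layer of the segmentation cascade. They code for transcription factors that are made in broad overlapping domains along the head-to-tail axis, mostly repress one another at the domain borders, and position the stripes of the pair-rule genes. Their enhancers read maternal gradients such as that of Bicoid together with Zelda, a maternally supplied pioneer factor that opens chromatin for early transcription. Zelda, the product of zld, is the protein manipulated in this study.

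In embryos of genotype CRY2-ZLD; His2AvRFP, Zelda is fused to CRY2, a plant photoreceptor used here so that blue light inactivates the fusion. The wild-type embryos, of genotype His2AvRFP, share the red fluorescent histone marker by which nuclear cycles were staged. Both genotypes were dechorionated in bleach, lit at 488 nm over NC10-14, NC10-12, NC13-14 or NC14, and imaged in brief intervals at 587 nm. A further CRY2-ZLD group received no light. There were 3 embryos (numbered 1, 2 and 4) in each NC10-14 group and 4 in each of the other 7 groups. The labels do not say how the CRY2-ZLD allele was made, whether embryos of a group shared parents, or their sex. Replicates are labelled as separate single embryos, so each p-value measures the spread between these embryos. Wild-type embryos without light were not analysed here, so an effect of light alone could not be tested.

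Library totals ran from 4382299 to 41210334 counts, and the second lowest was 13846445. The 6 markers of the cellular blastoderm were all present in every group. Their summed level in CPM (counts scaled to library size) was 557 to 943 in lit CRY2-ZLD at NC10-14, 6149 to 8198 at NC10-12, 1494 to 2063 at NC13-14 and 1554 to 2326 at NC14. It was 6754 to 10560 CPM in unlit CRY2-ZLD and 6279 to 17420 CPM over the wild-type groups. The 6 follicle cell and yolk markers summed to at most 3.94 CPM in any library. The maternal transcript smg, whose protein triggers clearance of maternal RNA and which is itself cleared at about this stage, was unevenly present. It stood at 1421, 1717 and 3782 CPM in CRY2-ZLD NC10-14 and at 1411, 1985 and 1096 CPM in wild type NC10-14. It reached 1688 and 838 CPM in CRY2-ZLD NC10-12 replicates 3 and 4, against 120 and 142 CPM in replicates 1 and 2. All other libraries lay between 66.6 and 382 CPM. Besides these 2 CRY2-ZLD NC10-12 libraries, replicate 3 of wild type NC14, replicate 4 of wild type NC13-14 (the library of lowest depth) and replicate 2 of wild type NC10-14 had been set apart in earlier work on these data. Where the call of a trunk gap gene changes without these 5 libraries, both values are given.

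The genes differ in size and place. On assembly dm6, hb (FBgn0001180) lies on chromosome 3R at 8690980 to 8697822, minus strand, with 3835 exon bases and introns of up to 3153 bases. Kr (FBgn0001325) lies on 2R at 25226611 to 25231394, plus strand, with 4411 exon bases. The neighbours kni (FBgn0001320; 3L, 20692330 to 20695378) and knrl (FBgn0001323; 3L, 20597141 to 20620659) are both on the minus strand, 71670 bases apart with 7 annotated genes between them. They have 2215 and 3909 exon bases, but the primary transcript of knrl spans 23519 bases against 3049 for kni, because of introns that total 19610 bases. The shortest is gt (FBgn0001150; X, 2427113 to 2428967, minus strand), with 1780 exon bases and a single intron of 75 bases. Each of the 5 shares 0 exon bases with any other annotated gene.

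CRY2-ZLD was first compared with wild type under the same light, which asks which of these genes differed by genotype in each window. The fusion allele and its inactivation by light vary together here, and Zelda activity was not measured. With light over NC10-14, gt, Kr and kni fell, and so they did with light over NC13-14. With light in NC14 alone gt fell, while Kr and kni lay lower on average without passing the test. With light over NC10-12, followed by the dark, none of the 5 genes passed. Levels at the end of that light were not measured. hb and knrl passed in none of the 4 windows. In whole-embryo RNA, fewer cells expressing a gene and less RNA per cell cannot be told apart.

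As counts, 3 of 5 genes were called lower at NC10-14 (edgeR quasi-likelihood test, Benjamini-Hochberg adjusted p below 0.05), where 7.58% of all genes tested were called lower. At NC13-14 it was 3 of 5 against 8.94% of all genes, and at NC14 1 of 5 against 9.65%. At NC10-12 it was 0 of 5 although 16.5% of all genes were called lower. There 1 gene, hb, had an unadjusted p below 0.05 in the higher direction, 1 was called by DESeq2 and 0 by limma-voom. The 5 genes had a median log2 change of -2.53 with light over NC10-14, of -0.02 with NC10-12, of -1.19 with NC13-14 and of -0.58 with NC14. Over all genes tested it was 0.06, -0.01, 0.07 and -0.03 in the same order of windows. All libraries of CRY2-ZLD lay below all of wild type for gt, Kr and kni at NC10-14 and at NC13-14, where 15.7% and 14.3% of all genes were separated in that way, and for gt alone at NC14, where 8.37% were.

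**Figure D1:**
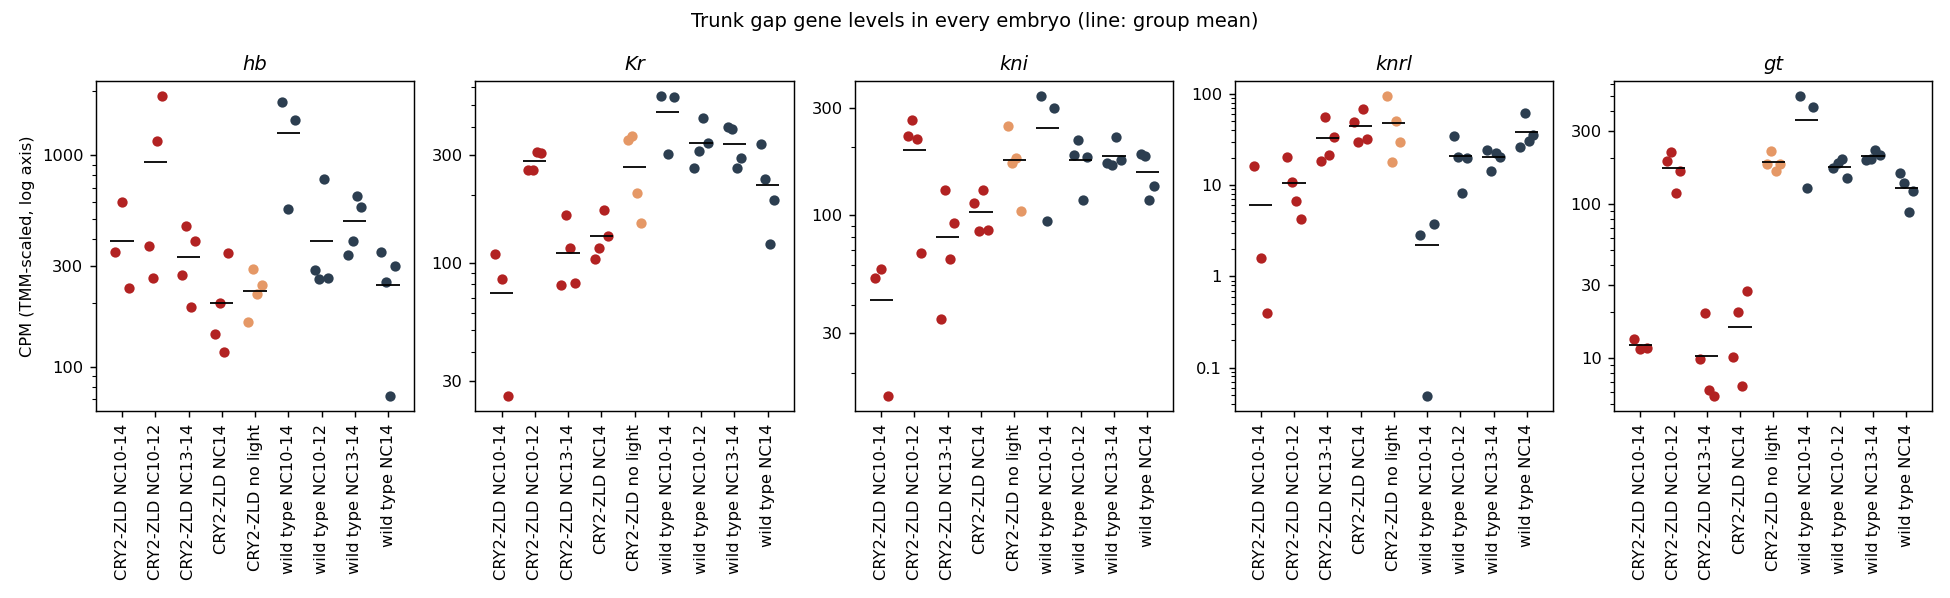
Level of each trunk gap gene in every embryo (vertical log axes, CPM scaled to library size; points, embryos; lines, group means of 3 or 4 embryos), with lit CRY2-ZLD groups in red, unlit CRY2-ZLD in orange and wild type in dark blue. In gt the lit CRY2-ZLD embryos of NC10-14, NC13-14 and NC14 lie at 5.67 to 27.1 CPM, below all other embryos, while those of NC10-12 lie at 117 to 218 CPM.

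The gene giant, gt, codes for a basic leucine zipper repressor made in an anterior and a posterior domain. With light over NC10-14 it stood at 13.3, 11.5 and 11.7 CPM in CRY2-ZLD, against 503, 127 and 425 CPM in wild type. The 3 CRY2-ZLD embryos were close to one another and far below the lowest wild-type embryo (log2 change -4.85 ± 0.49 (SE), adjusted p = 9.88e-09). Over NC13-14 the levels were 9.81, 19.7, 6.19 and 5.67 CPM in CRY2-ZLD, against 193, 197, 225 and 210 CPM in wild type (-4.32 ± 0.41, adjusted p = 4.02e-09). Under light in NC14 they were 10.2, 19.95, 6.60 and 27.1 CPM in CRY2-ZLD, against 160, 138, 88.2 and 121 CPM in wild type (-2.99 ± 0.39, adjusted p = 1.45e-06). The mean in CRY2-ZLD was thus 3.47% of the wild-type mean at NC10-14, 5.02% at NC13-14 and 12.6% at NC14. These 3 calls held in all 12 other settings tried and without each library in turn.

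After light in NC10-12 alone gt had the level of wild type. It measured 190, 218, 117 and 163 CPM in CRY2-ZLD and 172, 185, 195 and 147 CPM in wild type, with overlapping groups and a log2 difference of -0.02 ± 0.36 (adjusted p = 0.976). The CRY2-ZLD mean was 98.6% of that in wild type. Since gt is on the X and the embryos' sex is not given, genes of sex determination and dosage compensation were set beside it. Sxl, lncRNA:roX1 and msl-2 summed to 31.8 to 85.1 CPM in CRY2-ZLD and 508 to 2047 CPM in wild type at NC10-14, to 163 to 512 against 937 to 3073 CPM at NC13-14, and to 424 to 665 against 1157 to 3049 CPM at NC14. At NC10-12 they summed to 633 to 1272 CPM in CRY2-ZLD and 1066 to 3540 CPM in wild type. A sum over these 3 genes does not give the sex of an embryo. The wild-type embryos lowest in Sxl had it at 53.1, 123, 93.1 and 171 CPM at NC10-14, NC10-12, NC13-14 and NC14. In these embryos gt stood at 503, 195, 193 and 138 CPM. The part of sex in the gt result was not tested.

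Krüppel, Kr, codes for a zinc finger repressor of the central trunk. At NC10-14 it stood at 110, 84.6 and 25.6 CPM in CRY2-ZLD, against 547, 303 and 541 CPM in wild type (-2.66 ± 0.41, adjusted p = 1.49e-05). Over NC13-14 it measured 79.8, 163, 117 and 81.2 CPM in CRY2-ZLD, against 397, 389, 264 and 290 CPM in wild type (-1.61 ± 0.34, adjusted p = 0.000873). The groups were separate in both windows, and the CRY2-ZLD mean was 15.8% of the wild-type mean in the first and 32.9% in the second. With light in NC14 the levels were 104, 116, 171 and 132 CPM in CRY2-ZLD and 336, 234, 121 and 190 CPM in wild type. Here the groups overlapped, since wild type replicate 3 was at 121 CPM, and the difference of -0.76 ± 0.34 did not pass (adjusted p = 0.121). At NC10-12 Kr measured 257, 257, 310 and 307 CPM in CRY2-ZLD and 263, 312, 436 and 338 CPM in wild type (-0.26 ± 0.33, adjusted p = 0.599).

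Knirps, kni, codes for a zinc finger repressor of the nuclear receptor type that acts in the posterior trunk. At NC10-14 it stood at 53.0, 57.9 and 15.8 CPM in CRY2-ZLD, against 338, 94.3 and 300 CPM in wild type (-2.53 ± 0.49, adjusted p = 0.000331). The low wild-type value is that of replicate 2, which is still above the 3 CRY2-ZLD embryos. The call was lost in a fit of only these 6 libraries (-2.52, adjusted p = 0.0567). Over NC13-14 the levels were 34.8, 130, 64.4 and 92.6 CPM in CRY2-ZLD, against 171, 166, 222 and 176 CPM in wild type (-1.19 ± 0.40, adjusted p = 0.0378), again with separate groups. The call was close to the threshold. Leaving out any of 7 of the 8 libraries, all but CRY2-ZLD replicate 2, lost it, with changes of -1.52 to -0.94 and adjusted p of 0.0145 to 0.143 over the 8. Ribosomal protein scaling lost it too (-0.94, adjusted p = 0.193).

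Light in NC14 left kni at 113, 84.9, 130 and 85.7 CPM in CRY2-ZLD and at 186, 182, 117 and 135 CPM in wild type. The groups overlapped and the difference of -0.58 ± 0.40 did not pass (adjusted p = 0.341). At NC10-12 kni measured 225, 266, 218 and 67.9 CPM in CRY2-ZLD and 185, 217, 117 and 182 CPM in wild type (0.15 ± 0.40, adjusted p = 0.814). The mean of CRY2-ZLD was 17.3% of the wild-type mean at NC10-14, 43.7% at NC13-14, 66.7% at NC14 and 111% at NC10-12. Kr had 15.8%, 32.9%, 59.2% and 83.8% in the same windows, so that gt was the furthest below wild type of the 3 wherever light reached into NC13 or NC14.

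**Figure D2:**
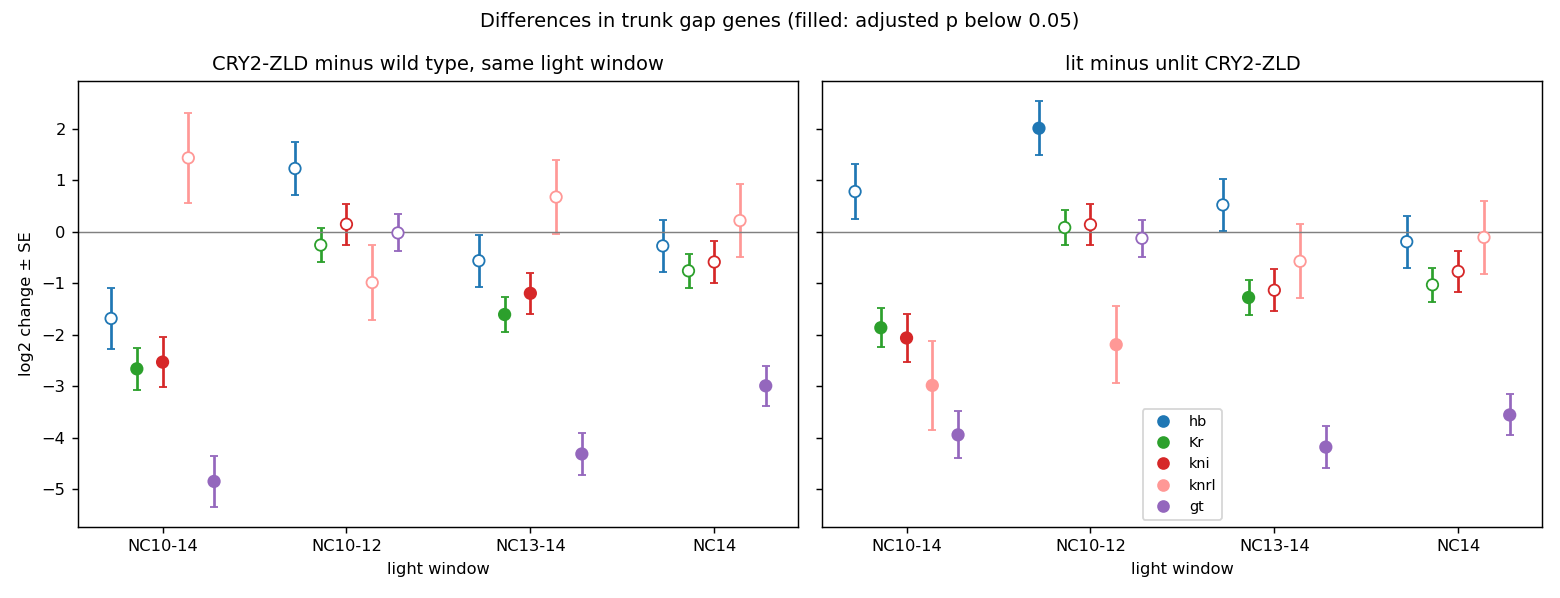
Log2 change ± SE of the 5 trunk gap genes by light window, for lit CRY2-ZLD minus wild type (left) and lit minus unlit CRY2-ZLD (right); filled points have an adjusted p below 0.05. Points for gt lie between -4.85 and -2.99 at NC10-14, NC13-14 and NC14 on both sides and near 0 at NC10-12, while hb and knrl scatter on both sides of 0.

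Hunchback, hb, codes for a zinc finger factor of the anterior trunk. The oocyte supplies a maternal hb transcript, and Bicoid activates a zygotic one, and counts per gene do not tell them apart. At NC10-14 hb stood at 348, 599 and 235 CPM in CRY2-ZLD, against 1776, 554 and 1466 CPM in wild type. Wild type replicate 2 overlapped with the CRY2-ZLD embryos, and the difference of -1.68 ± 0.60 did not pass (adjusted p = 0.0532). It passed without the 5 libraries set apart, among them wild type replicate 2 (-1.99, adjusted p = 0.0027), without wild type replicate 2 alone (-2.01, adjusted p = 0.027), without CRY2-ZLD replicate 2 (-2.05, adjusted p = 0.0436), with DESeq2 (-1.64, adjusted p = 0.0273) and with limma-voom (-1.65, adjusted p = 0.042).

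At NC10-12 hb went the other way on average, at 372, 263, 1163 and 1897 CPM in CRY2-ZLD and 285, 260, 767 and 261 CPM in wild type (1.23 ± 0.51, adjusted p = 0.0627). CRY2-ZLD replicates 3 and 4, which were also the ones with high smg, carried the difference. Without the 5 libraries it was -0.34 (adjusted p = 0.648). It passed with DESeq2 (1.19, adjusted p = 0.0467), without CRY2-ZLD replicate 1 (1.49, adjusted p = 0.0263) or 2 (1.54, adjusted p = 0.0187), and without wild type replicate 3 (1.78, adjusted p = 0.0129). Over NC13-14 hb measured 271, 460, 192 and 392 CPM in CRY2-ZLD and 338, 393, 643 and 566 CPM in wild type (-0.56 ± 0.51, adjusted p = 0.513). Under light in NC14 it measured 142, 199, 117 and 342 CPM in CRY2-ZLD and 347, 250, 72.6 and 298 CPM in wild type (-0.27 ± 0.50, adjusted p = 0.766). In both windows the groups overlapped.

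**Figure D3:**
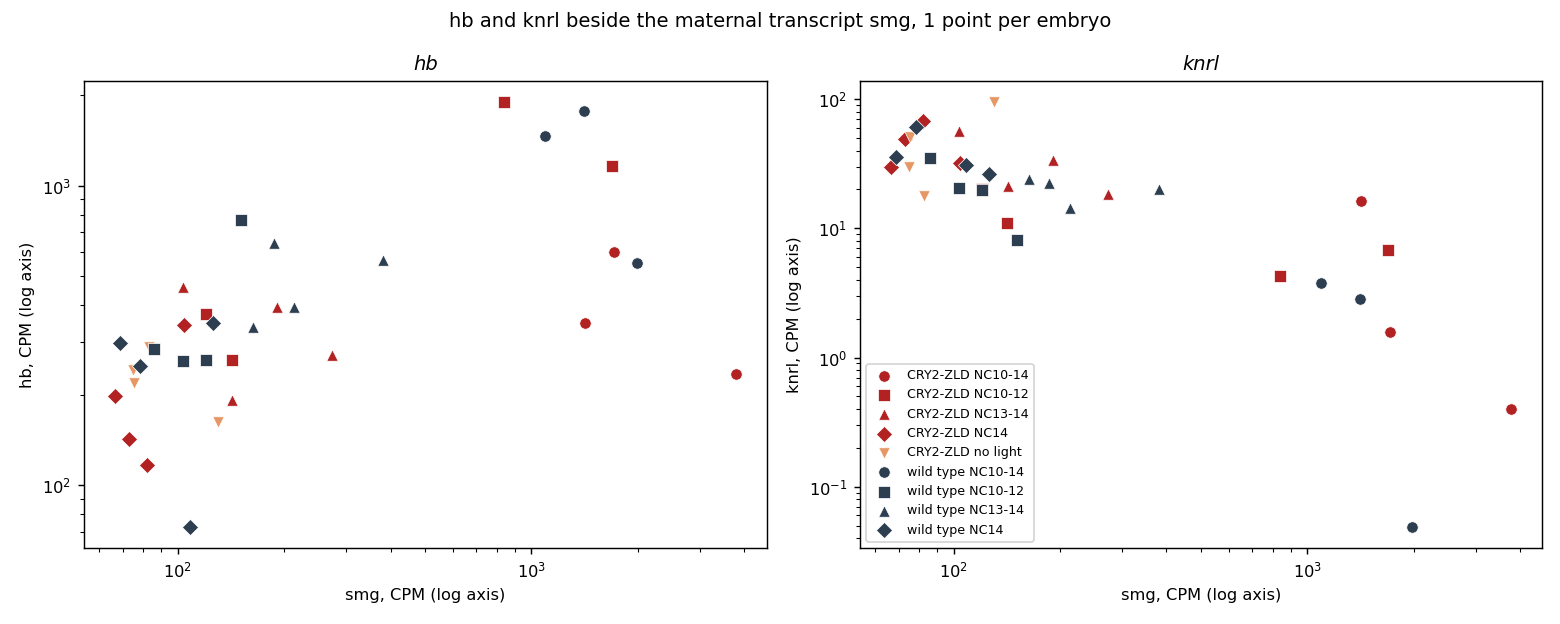
Level of hb (left) and knrl (right) in each embryo against that of the maternal transcript smg (all axes logarithmic, CPM), with 1 point per embryo and a symbol for each of the 9 groups. The NC10-14 embryos of both genotypes and 2 CRY2-ZLD NC10-12 embryos have smg between 838 and 3782 CPM, and in these knrl lies between 0.0489 and 16.3 CPM.

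Markers of maternal RNA were set beside hb and knrl. The 6 markers of maternal RNA that is cleared by NC14 summed to 1681 to 4045 CPM in CRY2-ZLD and 1351 to 2154 CPM in wild type at NC10-14. At NC10-12 they summed to 146 to 2040 CPM in CRY2-ZLD and 116 to 185 CPM in wild type. None of the 6 was at 0 in either pair of groups, and their part in the hb and knrl values was not tested. Over the 34 libraries hb had a Pearson correlation of 0.60 with smg on the scale of log2(CPM + 1), and knrl had -0.86. Within NC10-14 hb ran the other way: it was lowest in the embryo with the highest smg in each genotype, at 235 CPM in CRY2-ZLD replicate 4 (smg at 3782 CPM) and at 554 CPM in wild type replicate 2 (smg at 1985 CPM). These correlations are descriptions of embryos that share groups and libraries. The other 3 genes had correlations with smg of -0.11 (Kr), -0.33 (kni) and -0.04 (gt).

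The knirps-related gene knrl codes for a protein of the same family as kni. At NC10-14 it stood at 16.3, 1.59 and 0.401 CPM in CRY2-ZLD and at 2.85, 0.0489 and 3.75 CPM in wild type. These groups had the lowest knrl means of the 9, and 1 count lies behind the lowest wild-type value and 11 counts behind the lowest CRY2-ZLD value. The difference of 1.44 ± 0.87 did not pass (adjusted p = 0.278), and without CRY2-ZLD replicate 1 it turned to -1.18 (adjusted p = 0.471). At NC10-12 knrl measured 20.2, 10.9, 6.74 and 4.29 CPM in CRY2-ZLD and 34.9, 20.4, 8.16 and 19.96 CPM in wild type (-0.98 ± 0.73, adjusted p = 0.319). Over NC13-14 it measured 18.3, 56.2, 21.2 and 33.9 CPM in CRY2-ZLD and 24, 14.4, 22.5 and 20.2 CPM in wild type (0.68 ± 0.72, adjusted p = 0.588). In NC14 it measured 49.1, 29.9, 68.0 and 31.9 CPM in CRY2-ZLD and 26.3, 61.1, 30.8 and 35.4 CPM in wild type (0.22 ± 0.71, adjusted p = 0.875).

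Because kni and knrl lie in 1 neighbourhood and share a family, their ratio within each embryo was compared, which needs no scaling between libraries. The log2 ratio of kni to knrl counts was 1.29 ± 0.30 in CRY2-ZLD and 3.19 ± 0.30 in wild type at NC13-14 (SD, n = 4 each). It was 1.27 ± 0.26 in CRY2-ZLD and 2.06 ± 0.53 in wild type at NC14. In both windows all CRY2-ZLD embryos lay below all wild-type embryos, and the exact two-sided permutation test gave p = 0.029, the smallest it can give for 4 against 4. Adjusted over the 4 windows both were at 0.0571 and did not pass. At NC10-14 the ratio was 4.04 ± 2.02 in CRY2-ZLD and 7.84 ± 2.17 in wild type (n = 3 each; p = 0.1 by the exact permutation test, the smallest possible for 3 against 3). At NC10-12 the order was the other way, with 4.27 ± 0.68 in CRY2-ZLD and 3.21 ± 0.60 in wild type (n = 4 each; exact permutation p = 0.0571, adjusted p = 0.0762).

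**Figure D4:**
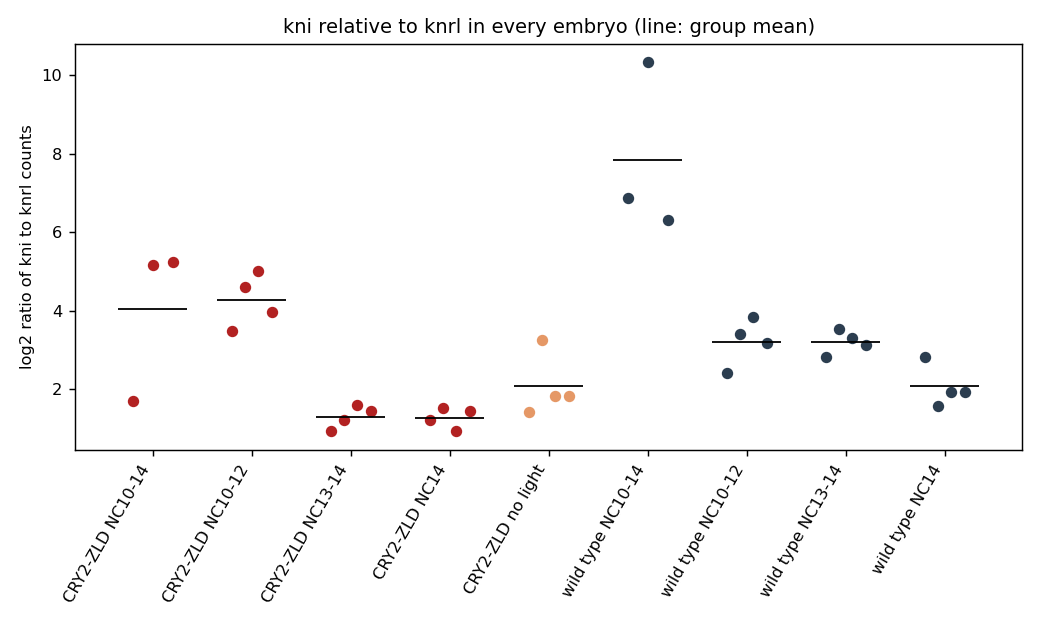
Log2 ratio of kni to knrl counts in every embryo by group (points, embryos; lines, group means; red, lit CRY2-ZLD; orange, unlit CRY2-ZLD; dark blue, wild type). The CRY2-ZLD embryos of NC13-14 lie between 0.93 and 1.60 and those of wild type NC13-14 between 2.83 and 3.53, while wild type NC10-14 reaches 10.33 where knrl had 1 count.

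Lit CRY2-ZLD embryos were next set against unlit ones of the same genotype, which holds the allele constant and varies the light. By their names, the NC10-12 and NC14 libraries form sets apart from that of the unlit embryos. For these windows the comparison varies the library set as well as the light. All 4 comparisons share the same 4 unlit embryos, and each shares its lit embryos with the comparison to wild type. At NC10-14, 4 of 5 genes were called lower, where 17.1% of all genes tested were. The 3 lit embryos had gt at 11.5 to 13.3 CPM, Kr at 25.6 to 110 CPM, kni at 15.8 to 57.9 CPM and knrl at 0.401 to 16.3 CPM. The unlit embryos had gt at 182, 222, 164 and 182 CPM, Kr at 349, 365, 203 and 149 CPM, kni at 250, 170, 180 and 105 CPM and knrl at 94.6, 17.7, 50.6 and 29.8 CPM. In each of the 4 genes all lit embryos lay below all unlit ones. Of all genes, 21.2% were separated in that direction. The log2 changes were -3.95 ± 0.46 for gt (adjusted p = 1.12e-07), -1.86 ± 0.38 for Kr (adjusted p = 0.000251), -2.06 ± 0.46 for kni (adjusted p = 0.000634) and -2.98 ± 0.87 for knrl (adjusted p = 0.00693). For hb, the remaining gene, lit embryos overlapped with unlit ones and the difference did not pass (0.78 ± 0.54, adjusted p = 0.272). The knrl call was lost in a fit of only these 7 libraries (-2.97, adjusted p = 0.0741). In wild type NC10-14 knrl was also low, at 2.85, 0.0489 and 3.75 CPM. Maternal smg stood at 1421 to 3782 CPM in the lit embryos and at 75.0 to 130 CPM in the unlit ones. Its part in the knrl difference was not tested.

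With light over NC13-14, 2 of 5 genes were called lower against 6.41% of all genes. gt changed by -4.18 ± 0.41 (adjusted p = 1.66e-08) with separate groups, as 13.5% of all genes were in that direction. Kr changed by -1.28 ± 0.34 (adjusted p = 0.0104) with overlapping groups. Its call was lost when lit replicate 1 was left out (-1.15, adjusted p = 0.0516), and likewise when libraries were scaled on ribosomal protein genes (-1.22, adjusted p = 0.0807). kni differed by -1.13 ± 0.40 (adjusted p = 0.0597), and passed with DESeq2 (adjusted p = 0.0358), with limma-voom (adjusted p = 0.0446), without the 5 libraries (adjusted p = 0.0192) and in a fit of only these groups (adjusted p = 0.0408). hb (0.52 ± 0.51, adjusted p = 0.592) and knrl (-0.57 ± 0.72, adjusted p = 0.706) did not pass. With light in NC14, 1 of 5 was called lower against 2.57% of all genes. This was gt, at -3.56 ± 0.40 (adjusted p = 4.15e-07) with separate groups, as 7.03% of all genes were in that direction. Kr differed by -1.03 ± 0.34 (adjusted p = 0.092). Without unlit replicate 4 Kr passed as well (-1.20, adjusted p = 0.0481). kni (-0.77 ± 0.40, adjusted p = 0.39), knrl (-0.11 ± 0.71, adjusted p = 0.971) and hb (-0.19 ± 0.505, adjusted p = 0.916) did not pass.

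With light over NC10-12, gt (-0.12 ± 0.36), Kr (0.08 ± 0.33) and kni (0.14 ± 0.40) did not pass against unlit embryos, with overlap in each gene. hb was called higher (2.01 ± 0.52, adjusted p = 0.00418), where 13.8% of all genes were called higher, and knrl was called lower (-2.19 ± 0.75, adjusted p = 0.0273), where 14.4% were called lower. Embryos overlapped in both genes. hb stood at 372, 263, 1163 and 1897 CPM in the lit embryos and at 163, 290, 219 and 243 CPM in the unlit ones. Without the 5 libraries, which leaves 2 lit embryos here, hb differed by 0.45 (adjusted p = 0.548) and knrl by -1.66 (adjusted p = 0.223). The knrl call was also lost with ribosomal protein scaling (-2.11, adjusted p = 0.0713) and without lit replicate 3 (-2.03, adjusted p = 0.0826), lit replicate 4 (-1.93, adjusted p = 0.0909), unlit replicate 1 (-1.64, adjusted p = 0.117) or unlit replicate 3 (-2.17, adjusted p = 0.0504).

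Unlit CRY2-ZLD embryos were compared with wild type to see what the fusion allele did without light. The wild-type embryos were the lit NC10-14 and NC13-14 groups, averaged with equal weight, because their library names put them in 1 set with the unlit embryos. Here 1 of 5 genes was called lower and 1 higher, where 15% of all genes were lower and 16.6% higher. hb was lower (-1.78 ± 0.48, adjusted p = 0.00606), all unlit embryos being below all 7 wild-type embryos as for 7.89% of all genes, and knrl higher (2.84 ± 0.64, adjusted p = 0.00134). gt (-0.52 ± 0.33, adjusted p = 0.234), Kr (-0.56 ± 0.30, adjusted p = 0.158) and kni (-0.26 ± 0.36, adjusted p = 0.614) did not pass. Against wild type NC13-14 alone edgeR called 0 of the 5, and 1, hb, had an unadjusted p below 0.05. There hb was at -1.08 ± 0.51 (adjusted p = 0.211) and knrl at 1.25 ± 0.73 (adjusted p = 0.332). In that comparison 8.03% of all genes were called in either direction. The smg level was 75.0 to 130 CPM in the unlit embryos, 1096 to 1985 CPM in wild type NC10-14 and 164 to 382 CPM in wild type NC13-14.

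The wild-type groups were set against each other, since both enter the unlit comparison. In wild type NC10-14 knrl was lower than in wild type NC13-14 (-3.17 ± 0.89, adjusted p = 0.0128), the only 1 of 5 called, where 18.5% of all genes were called in either direction. The groups were separate, as for 17.3% of all genes in that direction. Without wild type NC10-14 replicate 2 it did not pass (-2.67, adjusted p = 0.0863), nor without the 5 libraries (-2.69, adjusted p = 0.0683). hb differed by 1.38 ± 0.54 (adjusted p = 0.0721), and passed without the 5 libraries (1.74, adjusted p = 0.0155) and in a fit of these 2 groups alone (1.34, adjusted p = 0.0285). gt (0.77 ± 0.39), Kr (0.47 ± 0.36) and kni (0.41 ± 0.43) did not pass.

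Whether the genotype difference itself depended on the light window was tested by the difference of differences. By library names each genotype difference lay within 1 set, but NC10-12 and NC14 were each a set apart from NC10-14 and NC13-14. Window and library set thus vary together in all these tests except NC10-14 against NC13-14. The change from wild type was more negative with light over NC10-14 than over NC10-12 for 4 of 5 genes, where 4.84% of all genes were called in that direction. For knrl the difference had the other sign and did not pass (2.42 ± 1.135, adjusted p = 0.183). The difference was -4.83 ± 0.58 for gt (adjusted p = 1.25e-06), -2.41 ± 0.52 for Kr (adjusted p = 0.00335), -2.68 ± 0.62 for kni (adjusted p = 0.0064) and -2.92 ± 0.79 for hb (adjusted p = 0.0183). For gt it held in all settings and without each library. For Kr it was lost with ribosomal protein scaling (-2.20, adjusted p = 0.0583), and for kni in a fit of only these groups (-2.68, adjusted p = 0.051). For hb it was lost with ribosomal protein scaling (-2.73, adjusted p = 0.0532), in a fit of only these groups (-2.89, adjusted p = 0.0853), without the 5 libraries (-1.65, adjusted p = 0.155) and without any 1 of 4 single libraries, which were CRY2-ZLD NC10-14 replicates 1 and 4, wild type NC10-14 replicate 1 and CRY2-ZLD NC10-12 replicate 4 (adjusted p of 0.0582 to 0.0751).

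For gt the effect over NC13-14 was also larger than over NC10-12 (-4.30 ± 0.53, adjusted p = 5e-06), the 1 of 5 genes called where 1.18% of all genes were called in that direction. There hb (-1.79 ± 0.72), Kr (-1.35 ± 0.47) and kni (-1.34 ± 0.565) had an unadjusted p below 0.05 but did not pass (adjusted p of 0.143 to 0.217). Kr passed in a fit of only these groups (-1.34, adjusted p = 0.0256). hb ran from -1.79 to -0.18 over the settings, and knrl had the other sign (1.66 ± 1.02, adjusted p = 0.425). The effect over NC10-12 differed from that in NC14 by 2.97 ± 0.52 for gt (adjusted p = 0.00133), the 1 of 5 genes called, against 2.98% of all genes in that direction. In that test hb (1.505 ± 0.72) had an unadjusted p below 0.05 but did not pass (adjusted p = 0.215). Between NC10-14 and NC13-14, 0 of 5 genes were called by edgeR, DESeq2 or limma-voom, and 2 had an unadjusted p below 0.05 (Kr at -1.06 ± 0.51 and kni at -1.34 ± 0.61). Between NC13-14 and NC14, 0 of 5 were called by any of the 3 tools, and 1, gt at -1.32 ± 0.52, had an unadjusted p below 0.05. Few genes of any kind were called in these 2 tests, 0.998% in the first and 0.168% in the second.

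Levels of different genes can be compared only per length, as counts scaled to both library size and exon length (RPKM). In lit CRY2-ZLD gt was above knrl alone at NC10-14 (6.84 ± 0.554 RPKM, SD, n = 3) and last at NC13-14 (5.81 ± 3.65, n = 4) and NC14 (8.96 ± 5.25, n = 4), where it overlapped with knrl (8.29 ± 4.42 at NC13-14 and 11.4 ± 4.54 at NC14). hb was first in the 4 lit groups, at 103 ± 48.6, 241 ± 199, 85.8 ± 31.3 and 52.2 ± 26.3 RPKM for NC10-14, NC10-12, NC13-14 and NC14. Its embryos overlapped with those of the next gene in each of these groups except NC10-14. In unlit CRY2-ZLD gt was first (106 ± 13.7 RPKM, n = 4) and hb was above knrl alone (59.6 ± 13.8), with overlap between neighbours from gt to hb.

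In wild type hb was the highest of the 5 at NC10-14 (330 ± 166 RPKM, SD, n = 3), at NC10-12 (103 ± 65.1, n = 4) and at NC13-14 (126 ± 37.3, n = 4). gt came second there, at 198 ± 111, 98.1 ± 11.7 and 116 ± 8.05 RPKM, then kni (110 ± 59.1, 79.1 ± 18.9 and 83.0 ± 11.6) and Kr (105 ± 31.6, 76.4 ± 16.5 and 75.9 ± 15.4). In wild type NC14 the order was gt (71.2 ± 17), kni (70.0 ± 15.5), hb (63.1 ± 31.2) and Kr (50.0 ± 20.4). The embryos of neighbours in these orders overlapped, except for gt above kni at NC13-14. The last was knrl in each wild-type group, at 0.567 ± 0.494, 5.33 ± 2.80, 5.18 ± 1.08 and 9.82 ± 3.99 RPKM for NC10-14, NC10-12, NC13-14 and NC14, below all embryos of the 4 others.

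The 5 genes also differed in how evenly they were expressed. Over the 15 lit CRY2-ZLD embryos gt ran from 5.67 to 218 CPM, with a coefficient of variation of 137%, and hb from 117 to 1897 CPM (101%). There knrl ran from 0.401 to 68.0 CPM (82.9%), kni from 15.8 to 266 CPM (67.4%) and Kr from 25.6 to 310 CPM (57.2%). Over the 15 wild-type embryos Kr ran from 121 to 547 CPM and kni from 94.3 to 338 CPM, with coefficients of variation of 35.7% and 35.1%. gt ran from 88.2 to 503 CPM (54.5%), knrl from 0.0489 to 61.1 CPM (72.1%) and hb from 72.6 to 1776 CPM (85.6%). Both sets of embryos span 4 light windows. Within wild type NC13-14 gt was the most even, at 206 ± 14.3 CPM, against 184 ± 25.7 for kni and 335 ± 68.0 for Kr (SD, n = 4 each).

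Across all 34 libraries Kr had a Pearson correlation on the log2(CPM + 1) scale of r = 0.84 with kni and 0.83 with gt, and kni of 0.73 with gt. The libraries share groups, so these are descriptions. hb had r = 0.45 with Kr, 0.19 with kni and 0.39 with gt, and knrl had 0.02 with Kr, 0.30 with kni, -0.11 with gt and -0.58 with hb. Among 5114 genes with a mean of at least 10 CPM, the pattern of gt was most like that of upd1 (r = 0.97), CG15480 (0.96) and ftz (0.95). That of Kr was most like CG43184 (0.90), Ppa (0.88) and dpn (0.88). For kni the closest were trbl (0.86), sna (0.86) and lncRNA:CR43887 (0.86), for hb amos (0.80), CG7546 (0.79) and ttv (0.78), and for knrl CG4133 (0.91), Vps13B (0.91) and CG42404 (0.91). Over the 9 group means the closest were upd1 (0.99), CG15876 (0.99) and CG15480 (0.98) for gt, and CG43184 (0.98), dpn (0.98) and cN-IIIB (0.98) for Kr. They were Egfr (0.99), hrg (0.98) and trbl (0.98) for kni, aos (0.99), CG12182 (0.98) and garz (0.98) for knrl, and CG5174 (0.98), CG1927 (0.96) and CG9399 (0.96) for hb.

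The rest of the network was counted from lists of its layers. Maternal inputs activate or shape the gap gene domains. Of 10 (bcd, cad, zld, nanos, pum, brat, Stat92E, Trl, Clamp and tor), 1 was higher and 0 lower at NC10-14, 7 higher at NC10-12, 1 lower and 1 higher at NC13-14 and 3 higher at NC14. The share of all genes called higher was 7.82%, 16.9%, 8.32% and 7.79%, and 8.94% were called lower at NC13-14. At NC10-14, NC10-12 and NC14 0 of the 10 had an unadjusted p below 0.05 in the lower direction, and DESeq2 and limma-voom called 0 lower. The anterior determinant bcd was at 9.42, 6.19, 339 and 445 CPM in CRY2-ZLD NC10-12 and at 1.05 to 1.95 CPM in wild type NC10-12 (7.14 ± 1.24, adjusted p = 5.56e-05), the same replicates 3 and 4 being high that were high in hb and smg. The translational repressor pum (3.46 ± 0.54) and the GA-binding factor Clamp (1.74 ± 0.24) were also higher at NC10-12. Without the 5 libraries 4 of the 10 were higher there and 1 lower, 3 were higher and 1 lower at NC13-14, and 1 was higher at NC14. With ribosomal protein scaling 2 were higher and 0 lower at NC13-14. brat, a repressor of hb translation, was higher at NC10-14 (1.26 ± 0.36, adjusted p = 0.0161) and lower at NC13-14 (-0.99 ± 0.31, adjusted p = 0.0248), the last not with ribosomal protein scaling (-0.78, adjusted p = 0.126). At NC13-14 Clamp was higher (0.86 ± 0.23, adjusted p = 0.00914) and at NC14 Stat92E, Clamp and Trl were (0.96 ± 0.23, 0.80 ± 0.23 and 1.15 ± 0.37). Clamp (0.64, adjusted p = 0.0721) and Trl (1.0, adjusted p = 0.105) did not pass at NC14 without the 5 libraries.

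The 10 other gap genes listed were tll, hkb, oc, ems, btd, nub, pdm2, D, croc and cnc. They act at the ends, in the head or as later members of the class. Of these, 5 were lower than in wild type under light over NC10-14, 5 over NC13-14, 2 in NC14 and 0 over NC10-12. Of all genes 7.58%, 8.94%, 9.65% and 16.5% were called lower in these windows. In the 4 windows 0 of the 10 were called higher by edgeR, DESeq2 or limma-voom, with 1 at an unadjusted p below 0.05 (cnc at NC10-14). Ribosomal protein scaling left 1 of the 2 at NC14. At NC10-12 1 of them, pdm2, had an unadjusted p below 0.05, DESeq2 called 0 and limma-voom 1. Their median log2 change was -1.56, -1.52, -1.05 and -0.28 in that order of windows. The terminal gap gene tll stood at 2.55 ± 2.09 CPM in CRY2-ZLD and 152 ± 100 CPM in wild type at NC10-14 (n = 3 each; -5.89 ± 0.85, adjusted p = 5.69e-06). At NC13-14 it was at 4.03 ± 3.35 CPM in CRY2-ZLD and 108 ± 41.0 CPM in wild type (n = 4 each; -4.75 ± 0.70), and at NC14 it changed by -2.02 ± 0.61 (adjusted p = 0.0208), the last not with ribosomal protein scaling (-1.69, adjusted p = 0.0725). hkb, its partner at the poles, changed by -3.97 ± 0.83 at NC10-14 and by -3.77 ± 0.72 at NC13-14. D, a Sox factor, changed by -2.01 ± 0.42 at NC10-14. Against unlit CRY2-ZLD 4 of the 10 were lower at NC10-14, where 17.1% of all genes were. D was not among them (0.09 ± 0.38, adjusted p = 0.885). It was lower in unlit CRY2-ZLD than in the wild-type NC10-14 and NC13-14 groups (-1.635 ± 0.34, adjusted p = 0.000572), where 15% of all genes were. nub, a POU factor, changed by -4.47 ± 0.71 at NC13-14 and by -2.92 ± 0.66 at NC14.

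**Figure D5:**
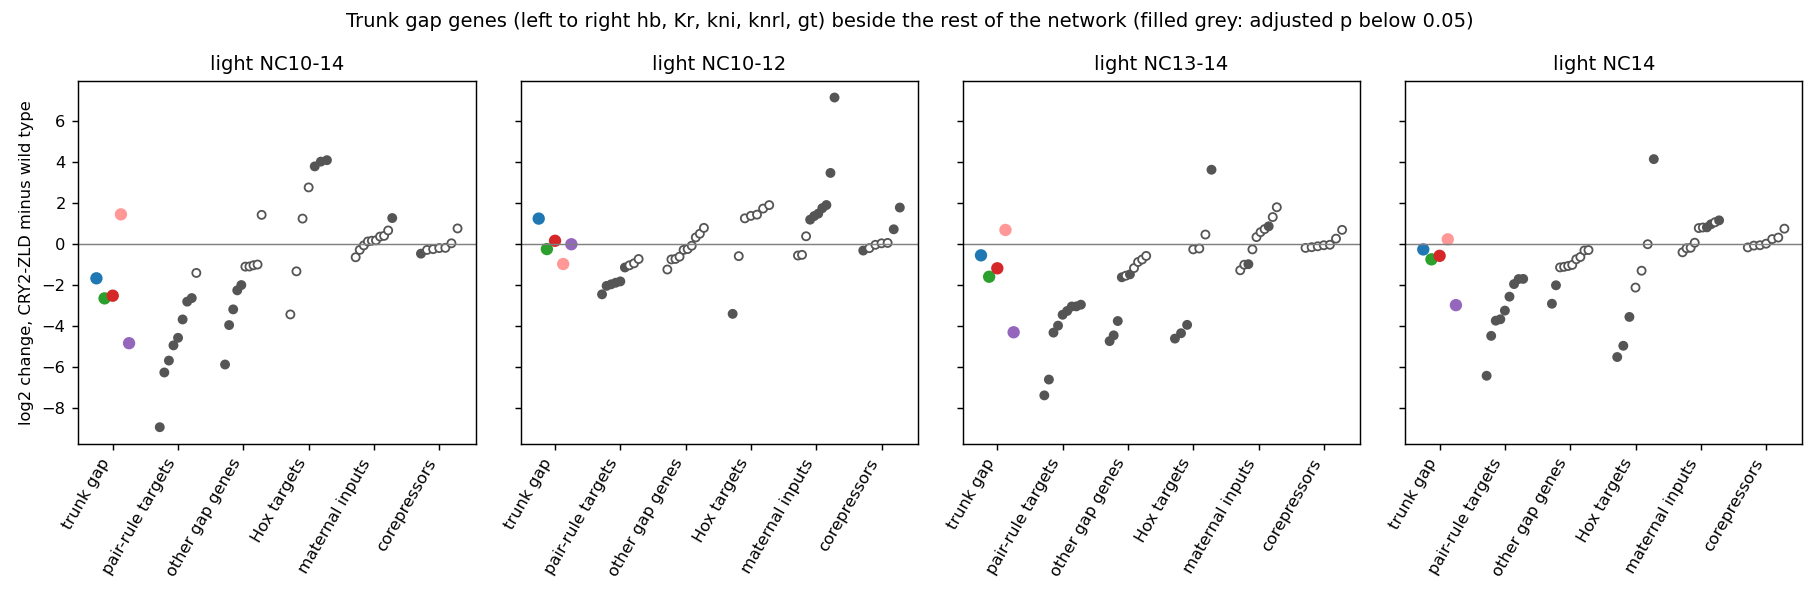
Log2 change of each gene, CRY2-ZLD minus wild type, in the 4 light windows, for the 5 trunk gap genes (coloured, left to right hb, Kr, kni, knrl and gt) and for lists of genes that act before or after them (grey, sorted by change within each list; filled where adjusted p is below 0.05). Pair-rule genes lie below 0 in all 4 windows, with 8, 6, 9 and 9 of 9 passing, where 7.58%, 16.5%, 8.94% and 9.65% of all genes were called lower. Ubx is left out, since at NC14 it had 0 counts in CRY2-ZLD.

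Pair-rule genes, whose stripes gap proteins help to position, come after the gap genes in the segmentation cascade. Of 9 (eve, ftz, hry, run, odd, prd, opa, slp1 and slp2), 8 were lower with light over NC10-14, 6 over NC10-12, 9 over NC13-14 and 9 in NC14. Of all genes 7.58%, 16.5%, 8.94% and 9.65% were called lower in these windows. The median log2 change of the 9 was -4.59, -1.83, -3.46 and -3.26. With ribosomal protein scaling 7, 5, 9 and 6 were lower. At NC10-12, where gt, Kr and kni did not pass, run (-1.98 ± 0.40, adjusted p = 0.000335), opa (-2.46 ± 0.62, adjusted p = 0.00256) and prd (-2.05 ± 0.52, adjusted p = 0.00285) fell. Without the 5 libraries 5 of the 9 were lower there, with a median of -1.16. Whether the 2 groups of genes differ from each other in that window was not tested. ftz, the pair-rule gene with a pattern close to that of gt, changed by -8.95 ± 1.04 at NC10-14, -7.40 ± 0.82 at NC13-14 and -6.44 ± 0.78 at NC14, and by -0.95 ± 0.61 at NC10-12 (adjusted p = 0.247), where it passed with limma-voom (-1.18, adjusted p = 0.0479). hry changed by -6.28 ± 0.72, -6.62 ± 0.63 and -4.49 ± 0.56 at NC10-14, NC13-14 and NC14, and eve by -4.59 ± 0.51 and -3.46 ± 0.42 at NC10-14 and NC13-14.

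Hox genes are also positioned by gap proteins. Of 8 (lab, pb, Dfd, Scr, Antp, Ubx, abd-A and Abd-B), 1 was lower and 3 higher at NC10-14, 1 lower at NC10-12, 4 lower and 1 higher at NC13-14 and 4 lower and 1 higher at NC14. Of all genes 7.58% were lower and 7.82% higher at NC10-14, 16.5% lower at NC10-12, 8.94% and 8.32% at NC13-14, and 9.65% and 7.79% at NC14. Ubx, whose domain is set by hb, had 0 counts over the 4 CRY2-ZLD embryos and 1282 over the 4 wild-type embryos at NC14. Taking 3 counts over the group as the limit that a count of 0 allows, its pooled level was at least 308-fold lower in CRY2-ZLD. This limit covers counting error only, not the spread between embryos. At NC13-14 Ubx had 7 counts in CRY2-ZLD and 847 in wild type (adjusted p = 5.26e-07). At NC10-14 it had 3 counts in CRY2-ZLD and 114 in wild type, which is a 39.3-fold lower level in CRY2-ZLD (95% exact counting interval 13.1 to 194, counting error only). At NC10-12 it differed by -1.48 ± 0.62 (adjusted p = 0.0682), and passed with DESeq2 (-1.47, adjusted p = 0.0475) and limma-voom (-1.97, adjusted p = 0.00581). Dfd, a Hox gene of the head, changed by -3.42 ± 0.48 at NC10-12, -4.36 ± 0.50 at NC13-14 and -5.52 ± 0.54 at NC14. At NC10-14 it differed by -1.34 ± 0.55 (adjusted p = 0.0956), and passed without the 5 libraries (-1.66, adjusted p = 0.0332). lab was higher at NC10-14 (4.08 ± 0.94) and NC14 (4.14 ± 0.81), as was Abd-B at NC10-14 (4.01 ± 1.19, adjusted p = 0.02), though not with limma-voom (2.94, adjusted p = 0.16), which called 1 of 8 higher at NC10-14. Within wild type, 4 of the 8 were called lower at NC10-14 than at NC13-14, where 18.5% of all genes were called in either direction. What this baseline contributes to the higher calls was not tested.

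Gap proteins act through corepressors. Of 7 (gro, CtBP, HDAC1, Sin3A, Smr, ebi and Mi-2), 1 was lower at NC10-14, where 7.58% of all genes were, and 1 lower and 2 higher at NC10-12, where 16.5% and 16.9% were. Without the 5 libraries 2 were lower and 0 higher at NC10-12. In the NC13-14 and NC14 windows 0 were called by edgeR, DESeq2 or limma-voom, and 1 in each, Smr, had an unadjusted p below 0.05. With ribosomal protein scaling 2 were called higher at NC14 (Smr and ebi), and without the 5 libraries 2 were called lower at NC13-14 (CtBP and HDAC1). The histone deacetylase HDAC1 changed by -0.48 ± 0.15 at NC10-14 (adjusted p = 0.0221), not with ribosomal protein scaling (-0.21, adjusted p = 0.709), and Smr changed by 1.77 ± 0.33 at NC10-12 (adjusted p = 0.000143), not without the 5 libraries (0.93, adjusted p = 0.0655). CtBP, the corepressor that Kr, kni and gt proteins bind, differed by -0.30 ± 0.12 at NC10-14 (adjusted p = 0.091). eg, a further gene of the knirps family, had too few counts to be tested.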

How the data were processed

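Poly(A) RNA libraries were made from single embryos with the TruSeq v2 chemistry, per the labels' protocols. The deposited table holds raw read counts per gene, made by the authors with featureCounts 1.5.3 in 1 run, per the file headers, whose command names no option for strand, read pairs or multi-mapped reads, so reads of a gene and of an antisense transcript cannot be told apart. Its other numeric column (other unit), deposited with the counts, is the summed exon length in bases, used here for RPKM. The submitters' processing notes name Trimmomatic 0.36, HISAT2 2.1.0, DESeq2 1.14.1 and assembly dm6. Gene symbols came from an Ensembl annotation of the same assembly, where all 5 genes have the same position.

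Genes kept by filterByExpr with a minimum count of 10 (9519 of 17491, all 5 members among them) entered 1 quasi-likelihood fit (edgeR 4.0.16 under R 4.3.3, TMM scaling, glmQLFit and glmQLFTest) with 9 group means. The Benjamini-Hochberg adjustment ran over all 9519 genes, with a threshold of 0.05. SE is the log2 change divided by the root of the F statistic. The kni to knrl ratio had 0.5 added to each count. Intervals cover counting error only: without molecular identifiers, reads are not separate molecules. Both members and lists were chosen with earlier results of these data known. By rule, the text names the 5 genes in each comparison, up to 3 genes with the smallest p from each list in each genotype comparison, and the 3 genes of highest correlation with each of the 5, over libraries and over group means; list genes beyond it were named after their values were seen. Alternatives were DESeq2 size factors, scaling on 90 ribosomal protein genes, other filters on low counts, DESeq2 1.42.0, limma-voom (limma 3.58.1), a replicate block, a term for library parts (names ending S1 to S10 against S11 to S18), fits of only the groups compared, leaving out the 5 libraries, a threshold of 0.01, and leaving out each library in turn. The analysis was tested on simulated data. No genome sequence was used here, so no promoter or protein sequence is shown.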

Additional observations from a re-analysis of the deposited data

Results flagged for a closer look

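In 35 groups of 4 embryos, Dixon's test marked 2 values in which a single embryo stood apart from the others of its group, which is about what chance gives at this level. hb was at 767 CPM in wild type NC10-12 replicate 3, against 285, 260 and 261 CPM in the other embryos of that group. kni was at 222 CPM in wild type NC13-14 replicate 3, against 171, 166 and 176 CPM in the others.

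The genotype effect differed between light windows in 6 tests. Between NC10-14 and NC10-12 the log2 difference of the effects was -2.92 for hb, -2.41 for Kr, -2.68 for kni and -4.83 for gt. For gt it was also 2.97 between NC10-12 and NC14, and -4.30 between NC13-14 and NC10-12. Tests that name the same window share its embryos, and all 6 cross library sets. Maternal smg, which ran from 1096 to 3782 CPM at NC10-14 and from 85.7 to 1688 CPM at NC10-12, also differed between these windows, and its part in the differences was not tested.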

How the results depend on the processing

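Of 335 counts of called genes under other settings, 313 stayed within 1.5 times the count reported, and of 1680 single log2 values 1585 kept their sign and their side of the threshold. Same-numbered embryos of the 2 genotypes did not pair (correlations of their deviations from -0.11 to 0.28), and not every embryo correlated best with its own number. Under the replicate block no count of called genes moved by over 1.5 times, and the only sign to turn was knrl, lit against unlit at NC14 (0.07, against -0.11).

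With a replicate block and only the groups compared, the count was 1 in place of 3 at NC10-14 (Kr at -2.80, adjusted p = 0.0856, and kni at -2.54, adjusted p = 0.16, did not pass), 2 in place of 4 for the difference between NC10-14 and NC10-12, 2 in place of 1 between NC13-14 and NC10-12, and 0 in place of 1 between the wild-type groups, and the hb call for lit against unlit at NC10-12 was lost (1.65, adjusted p = 0.0904). Without the block, a fit of only the groups compared gave 2 in each of the last 3. Ribosomal protein scaling gave 0 at NC10-12 and 1 at NC13-14 for lit against unlit, and 2 for the difference between NC10-14 and NC10-12. It moved the median of all genes for CRY2-ZLD against wild type to 0.32, 0.19, 0.28 and 0.42 at NC10-14, NC10-12, NC13-14 and NC14. Without the 5 libraries the count for lit against unlit at NC10-12 was 0. A threshold of 0.01 gave 0 there, 1 at NC13-14 and 0 between the wild-type groups. The term for library parts gave 2 for lit against unlit at NC14. The cause was not tested.

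Signs turned in differences that had not passed. Against wild type they were hb at NC10-12 without the 5 libraries (-0.34), gt at NC10-12 with ribosomal protein scaling (0.21) and without the 5 libraries (0.21), and hb at NC14 with ribosomal protein scaling (0.03). For lit against unlit they were Kr at NC10-12 with the part term (-0.15) and without the 5 libraries (-0.08), gt at NC10-12 without them (0.10), and knrl at NC14 with limma-voom (0.11) and the replicate block in the groups compared (0.11). The hb difference between NC13-14 and NC14 turned to 0.05 without the 5 libraries.

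Leaving out each library in turn, counts for lit against unlit ran from 0 to 1 at NC10-12, 1 to 3 at NC13-14 and 1 to 2 at NC14, and between the wild-type groups from 0 to 1. Values that crossed 0 against wild type were knrl at NC10-14 (-1.18 to 2.14) and NC14 (-0.05 to 0.54), and kni (-0.04 to 0.43) and gt (-0.15 to 0.13) at NC10-12. For lit against unlit they were Kr (-0.13 to 0.27), kni (-0.05 to 0.42) and gt (-0.26 to 0.02) at NC10-12 and knrl at NC14 (-0.38 to 0.48). Between windows they were knrl, NC10-14 against NC13-14 (-1.83 to 1.49) and against NC10-12 (-0.19 to 3.13), and hb, NC13-14 against NC14 (-0.51 to 0.10). For knrl at NC10-14, 1 to 410 counts lie behind each value.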
